A study of Mus musculus with 16 samples.

Results

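Gadd45g, Gadd45b, Ccn2 (also called Ctgf) and Ier3 are early response genes, and their transcripts were followed here across 5 mice, W1 to W5, which were wild-type male littermates giving their right kidney. The members are all probes that the platform annotation gives one of these 4 gene symbols, which are 6 of the 20205 probes, for 4 of the 9669 genes named on the array. They are 1 probe for Gadd45g (probe 931), 2 for Gadd45b (1882 and 1894), 1 for Ccn2 (2086) and 2 for Ier3 (16645 and 18004). The genes were chosen by their log2 ratios on these same arrays, where one probe of each had been seen to differ among the kidneys, so the differences of the members are a description, and no test outcome supports them. The labels name no treatment, and the mice had a C57BL/6 and 129Sv mixed genetic make-up. They were 88 ± 2 days old and were killed in the morning between 8 and 10. Each kidney of W1, W2, W3 and W4 was hybridised against that of W5 on 4 two-colour arrays, giving 16 arrays, with the mouse in channel 1 on 8 of them and W5 in channel 1 on the other 8. Every group is therefore 1 animal, and the arrays of a mouse repeat the same pair of RNA extracts.

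Early response genes are transcribed within minutes of a stimulus, without new protein synthesis, and many of their transcripts are short-lived. Gadd45b and Gadd45g encode small acidic proteins induced by stress and growth signals that bind and activate the kinase MAP3K4 and also bind cell cycle and repair proteins. Ccn2 is a secreted matricellular protein, induced by TGF-beta and by mechanical tension through YAP and TEAD, and is a well known marker of kidney fibrosis. Ier3 (IEX-1) is induced by NF-kappaB and growth factors and acts on cell survival and ERK signalling.

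The upstream DNA of the members is shown because they are grouped as one class of inducible genes, while their values below follow different orders of the kidneys. Gadd45g, Gadd45b and Ier3, 3 of the 4 members, were matched in the RefSeq promoter table of build GRCm38.p6. The 250 bases before the transcription start are at chr13:51846425-51846674 for Gadd45g, chr10:80929841-80930090 for Gadd45b and chr17:35821463-35821712 for Ier3, all on the plus strand, printed 5′ to 3′ with motif matches in capitals:
Gadd45g: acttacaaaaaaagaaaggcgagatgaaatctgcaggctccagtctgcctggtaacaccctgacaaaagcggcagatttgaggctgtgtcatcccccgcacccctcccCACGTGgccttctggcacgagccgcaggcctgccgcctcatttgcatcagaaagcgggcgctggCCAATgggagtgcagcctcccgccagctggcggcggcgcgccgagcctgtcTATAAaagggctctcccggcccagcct
Gadd45b: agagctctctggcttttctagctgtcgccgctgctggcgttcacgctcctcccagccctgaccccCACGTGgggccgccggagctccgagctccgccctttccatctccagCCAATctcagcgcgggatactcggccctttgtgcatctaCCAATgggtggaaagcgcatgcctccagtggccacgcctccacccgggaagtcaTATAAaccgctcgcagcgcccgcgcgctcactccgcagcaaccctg
Ier3: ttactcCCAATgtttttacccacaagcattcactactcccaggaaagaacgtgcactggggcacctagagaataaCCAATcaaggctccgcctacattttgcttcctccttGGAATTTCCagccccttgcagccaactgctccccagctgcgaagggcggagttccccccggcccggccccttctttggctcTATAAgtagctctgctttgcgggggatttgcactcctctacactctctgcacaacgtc

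The capitals mark matches to 4 motifs, searched on both strands apart from the TATA box, which was searched on the strand of the gene. The core of the TATA box, TATAA, begins 27 bases before the start in Gadd45g, 46 in Gadd45b and 58 in Ier3, and is held by 16.7% of 27025 windows of this length. The CCAAT box is held by all 3 genes and by 34.5% of the windows. The E-box with the letters CACGTG lies 142 bases upstream in Gadd45g and 185 in Gadd45b, and is held by 6.05% of the windows. A form of the NF-kappaB site with the letters GGNNTTTCC lies 139 bases upstream in Ier3 and in 4.84% of the windows. No match was found in these 3 windows for the AP-1 letters TGANTCA (6.87% of the windows), the cAMP response element TGACGTCA (1.62%), the TEAD letters GGAATG (12.6%) or the CArG box by its usual letters (1.4%). These are matches of letters and not measured binding sites.

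Values are log2 ratios against W5, and the sign of each array with W5 in channel 1 was turned so that all arrays run the same way. Which channel was the numerator is not given in the sources used here. Values above 0 are therefore said to lie on side A of W5 and values below 0 on side B, and neither side is called higher. Between 80.2% and 91.1% of the probes had a value on any one array, and the number of arrays and animals limits the precision. Residual standard deviations (SD) were 0.153 to 0.174 over the arrays of W1 and 0.208 to 0.231 over those of W4. A fitted value is the mean of a mouse's arrays after removal of a dye term for each probe, with its standard error (SE), and the range is how far apart the extreme kidneys lie when W5 is put at 0. Ratios carry no level of expression, so levels of the members, and of kidney markers, cannot be given.

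Gadd45g set W5 apart from each of its littermates. Its values were -0.88, -1.0, -1.01 and -0.64 on the arrays of W1, and -0.81, -0.69, -0.41 and -0.49 on those of W2. They were -0.98, -1.06, -1.08 and -1.16 in W3, and -0.38, -0.35, -0.12 and -0.40 in W4. All 16 values lay on side B, so the deposited values were below 0 on the 8 arrays with the mouse in channel 1 and above 0 on the other 8. The fitted values were -1.07 in W3, -0.88 in W1, -0.60 in W2 and -0.31 in W4 (SE 0.08 each, n = 4 arrays). W3 thus lay 2.1-fold from W5 and W4 1.24-fold. The arrays of W4 did not overlap those of W2, with 0.29 ± 0.12 between the fitted values, while the arrays of W2 overlapped those of W1, and those of W1 overlapped those of W3. The means over the arrays with the mouse in channel 1 and with W5 in channel 1 were -1.03 and -1.11 in W3, and -0.25 and -0.38 in W4. Over the 4 mice the mean was -0.72 ± 0.33 (SD, n = 4 mice).

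Ccn2 separated W2 and W4 from the other kidneys. Its values were 0.66, 0.72, 0.47 and 1.22 in W2, and 0.69, 0.70, 0.67 and 0.66 in W4. They were -0.01, -0.05, -0.14 and -0.02 in W1, and -0.02, 0.15, 0.21 and 0.21 in W3. W2 and W4 lay on side A on all their arrays, and neither overlapped W1 or W3, which lay near W5. The fitted values were 0.77 in W2, 0.68 in W4, 0.14 in W3 and -0.05 in W1 (SE 0.09 each, n = 4 arrays). W2 and W4 differed by 0.09 ± 0.12, and the arrays of W4 lay within those of W2, whereas W4 and W3 differed by 0.54 ± 0.12 without overlap. The 4 arrays of W4 lay within 0.66 to 0.70, and the value of 1.22 on array W2.4 was the highest of the gene. Without W2.4 the fitted value of W2 was 0.63 and the range 0.73, against 0.82 with it, or 1.77-fold.

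The Gadd45b probes gave different pictures. Probe 1882 read -0.48, -0.35, -0.50 and -0.26 in W1, and -0.37, -0.36, -0.12 and -0.16 in W4. It read -0.09, 0.15, -0.24 and 0.33 in W2, and -0.22, -0.07, -0.23 and 0.18 in W3. W1 and W4 thus lay on side B on all their arrays, while W2 and W3 straddled W5. In W2 the mean was -0.167 with the mouse in channel 1 and 0.24 with W5 in channel 1. These means were -0.224 and 0.055 in W3, -0.49 and -0.306 in W1, and -0.242 and -0.263 in W4. The fitted values were -0.40 in W1, -0.25 in W4, -0.09 in W3 and 0.04 in W2 (SE 0.08 each), a range of 0.43, or 1.35-fold. Neighbours in this order overlapped in every case, while the arrays of W1 were separate from those of W2 and W3. Probe 1894 of the same gene stayed between -0.22 and 0.02 on all 16 arrays, with fitted values of -0.09 to -0.12 (SE 0.07) and a range of 0.12. Its residual SD was 0.08, and 98.8% of the probes tested had a larger one. Probes of other genes also often differed in their call. Of 1061 genes with 2 tested probes, 77 had at least 1 called in the 5-kidney test described below, and in 12 of these (15.6%) both were called.

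The Ier3 probe 16645 placed W3 and W2 farthest from W5. Its values were 0.49, 0.52, 0.24 and 0.78 in W3, and 0.69, -0.01 and 0.85 on the 3 arrays of W2 with a value. They were -0.09, 0.20, -0.08 and 0.31 in W1, and -0.01, 0.42, -0.23 and 0.31 in W4. W3 lay on side A on all 4 arrays. In the other mice, arrays with the mouse in channel 1 fell on side B. Those with W5 in channel 1 fell on side A. The fitted values were 0.51 ± 0.08 in W3, 0.44 ± 0.10 in W2, 0.12 ± 0.08 in W4 and 0.09 ± 0.08 in W1, a range of 0.51, or 1.42-fold. Neighbours in this order overlapped on their arrays.

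This probe also carried a dye effect, which the choice of genes did not use. Its dye term was -0.22 (limma, adjusted p = 0.00659), and 12.5% of all probes tested had a dye term called. In W2 the single array with the mouse in channel 1 read -0.01, against a mean of 0.77 on the arrays with W5 in channel 1, and the fitted value of W2 rests on 3 arrays. In W3 these means were 0.36 and 0.65, both on side A. The dye terms of Gadd45g, Ccn2 and the Gadd45b probes ran from -0.11 to 0.02 and were not called (adjusted p = 0.0861 to 0.919). The other Ier3 probe, 18004, had 13 values, too few for the fit. It read 0.38, 1.13, 0.63 and 0.02 in W3, 0.29, 0.24, 0.48 and 0.27 in W4, 0.21, 0.90 and -0.18 in W2, and 0.06 and 0.45 in W1. Of its 13 values 12 lay on side A, and its arrays within W3 spread more widely than those of probe 16645.

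**Figure D1:**
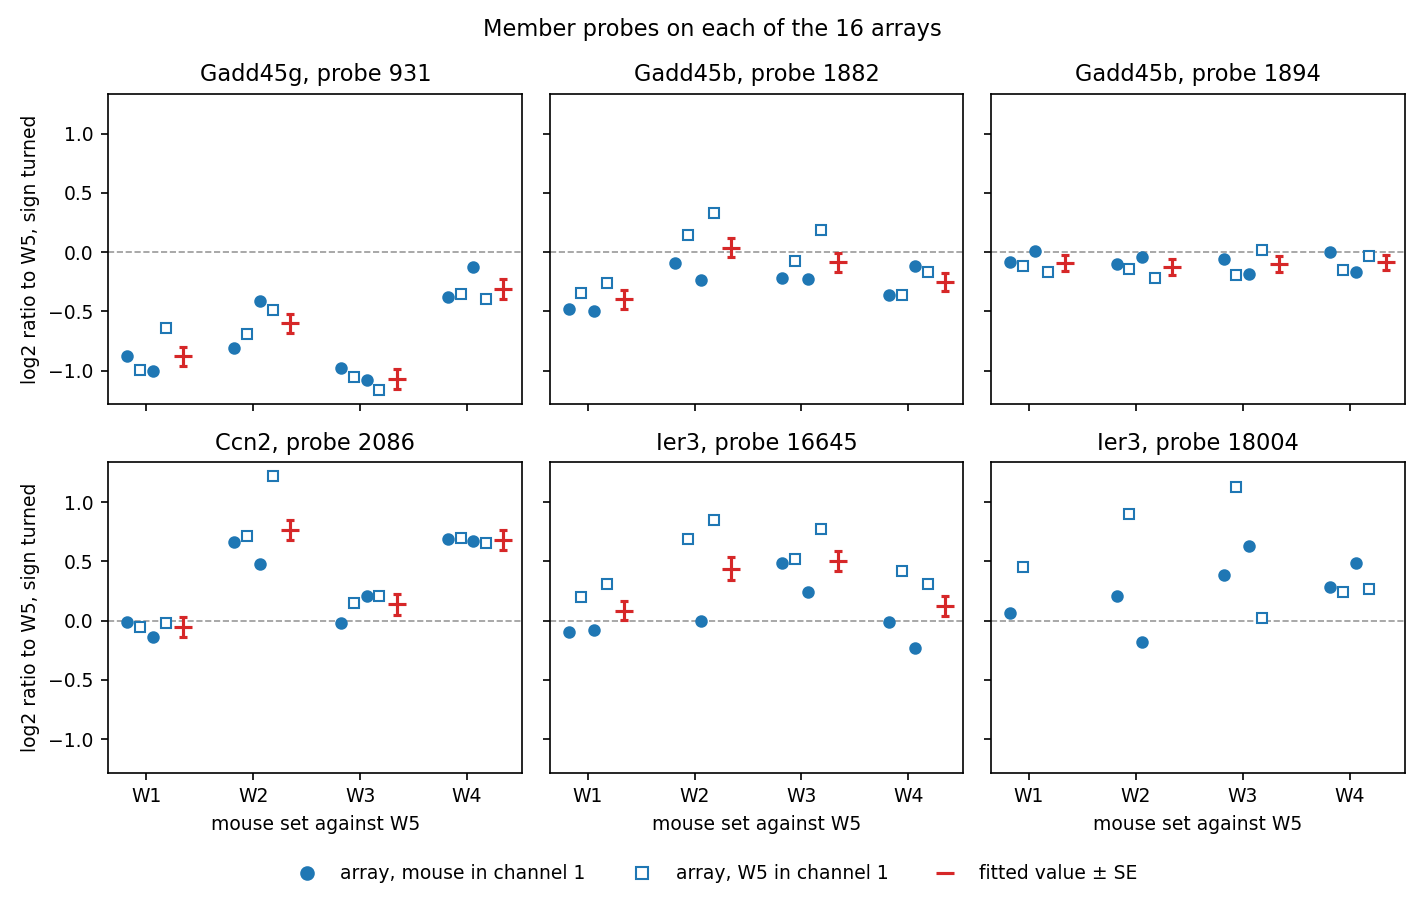
The 6 member probes by mouse (x axis), with the log2 ratio to W5 after turning the sign (y axis). Filled circles are arrays with the mouse in channel 1, open squares arrays with W5 in channel 1, and red marks the fitted values ± SE (none for probe 18004); W5 is the dashed line at 0. All 16 Gadd45g values lie below the line, and the Ccn2 values of W2 and W4 lie above those of W1 and W3.

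Set among all 15715 probes tested, whose median range was 0.24, the ranges of the members ran from ordinary to extreme. A larger range than that of Gadd45g was found in 0.255% of the probes, than that of Ccn2 in 0.897%, and than that of Ier3 in 6.71%. For the Gadd45b probes these shares were 11.6% and 90.2%. A limma F test asked whether any of the 5 kidneys differed, a probe being called at a Benjamini-Hochberg adjusted p under 0.05. It called 4.00% of all probes, and 4 of the 5 tested member probes, all but Gadd45b 1894. The F test among W1 to W4, in which W5 cancels, called 0.700% of all probes and, of the members, Gadd45g and Ccn2. The test of the 4 mouse means against W5 called 0.350% of all probes and, of the members, Gadd45g. All 3 tests read the same arrays on which the genes had been chosen, so these calls are no evidence about the members and nothing is read from them.

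**Figure D2:**
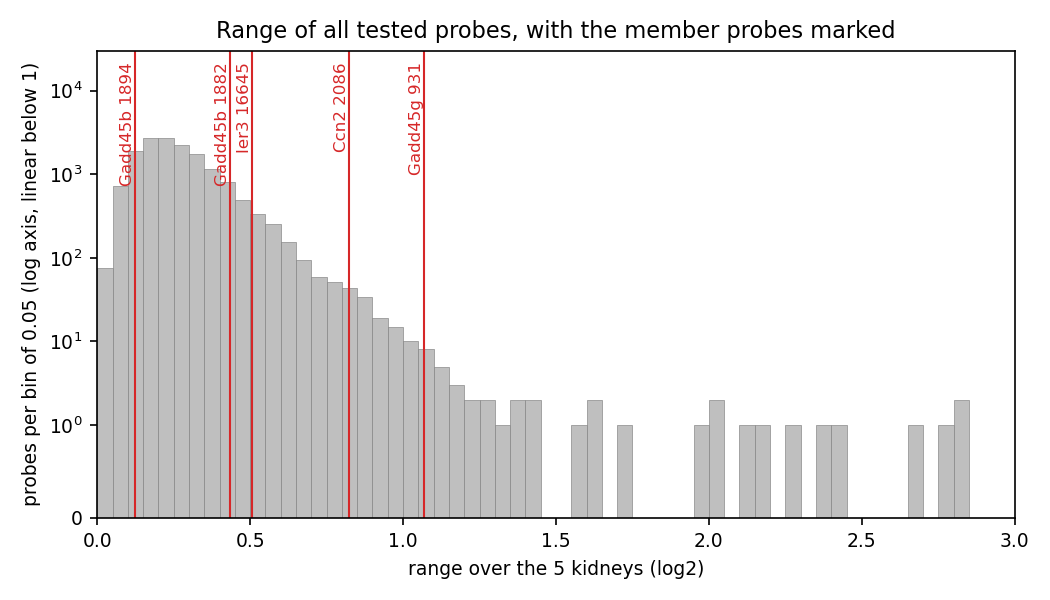
Number of probes (y axis, logarithmic, linear below 1) by range over the 5 kidneys in log2 units (x axis, bins of 0.05) for the 15715 probes tested, with the 5 tested member probes as red lines. Gadd45g at 1.07 and Ccn2 at 0.82 lie in the upper tail, and the Gadd45b probes at 0.43 and 0.12 lie on either side of the median of 0.24.

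The members did not share one profile. Gadd45g and Ccn2 both had W2 and W4 above W1 and W3 on the side A scale, as had 17.6% of all named genes. For Gadd45g the fitted values were -0.31 in W4, -0.60 in W2, -0.88 in W1 and -1.07 in W3. Its arrays of W2 overlapped those of W1. Likeness was measured as the cosine of a pair of probes over the 16 arrays after removal of the dye terms, where 1 is the same profile and -1 its mirror image. The arrays share W5 and are not independent, so the cosines only describe. It was 0.61 between Gadd45g and Gadd45b 1882, -0.46 between Gadd45g and Ccn2, and -0.80 between Gadd45g and Ier3. Ccn2 and Ier3 had a cosine of 0.62, Gadd45b 1882 had -0.17 with Ccn2 and -0.21 with Ier3, and the Gadd45b probes had 0.45 with each other. For genes with 2 tested probes the median cosine of the pair was 0.126, and 0.374 where only 1 was called. Gadd45b 1894, with a range of only 0.12, had 0.715 with Gadd45g, -0.677 with Ccn2 and -0.64 with Ier3. A deviation of W5 itself enters every array, so it can raise, lower or turn the sign of these cosines. By fitted value the mouse farthest from W5 was W3 for Gadd45g and for Ier3, W2 for Ccn2 and W1 for Gadd45b 1882. Leaving out 1 array changed the placings of Ccn2 and Ier3. Without W2.4, Ccn2 was farthest in W4 (0.68, against 0.63 in W2). Without W2.3, Ier3 was farthest in W2 (0.58, against 0.51 in W3).

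Profiles most like that of each gene were taken from all probes with 1 named gene. Gadd45g was most like Fabp4, the adipocyte fatty acid binding protein, and Rdh16f2, with a cosine of 0.88 each, then Serpina10, Ckb and Mknk2 (0.88, 0.87 and 0.86). Its mirror image was closest in Cpn1, a carboxypeptidase N subunit, at -0.95, with values of 0.80 in W3, 0.64 in W1, 0.25 in W2 and 0.10 in W4, followed by Serpina1e and Serpina1b at -0.91 and -0.90. For Cpn1 the order of the mice was thus that of Gadd45g on the opposite side of W5.

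Ccn2 was most like the class II antigen presentation genes H2-Aa (0.94) and H2-Eb1 (0.94), followed by Igfbp3 (0.91), Plpp1 (0.91) and Ipmk (0.90). H2-Aa, for example, had 0.46 in both W2 and W4, while W3 had 0.16 and W1 0.10. Of the other tested Ipmk probes, 924 was called in the 5-kidney test and 968 was not (limma, adjusted p = 0.0265 and 0.181). The least like Ccn2 were Slc22a7, an organic anion transporter of the proximal tubule, at -0.94, and Slc25a25 and Ttr at -0.90 each. Another Ttr probe spanned 0.16 without a call (limma, adjusted p = 0.907).

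Gadd45b 1882 was most like Cyp2d9 (0.86), S100a11 (0.84), Cnksr1 (0.82), Smyd2 (0.81) and Napsa (0.81), and least like Col27a1 (-0.90), Nat8f1 (-0.85) and Cndp2 (-0.80). Ier3 was most like Lyz2 (0.91 over 14 arrays), the macrophage lysozyme, then Ppp1r10, Rnf213, Serpina1b and Apoh (0.88, 0.86, 0.86 and 0.86), and least like Serpina10 (-0.90), Cela2a (-0.88) and Prelid2 (-0.85). The Lyz2 probe named here, 12257, had 0.48 in W3 and 0.32 in W2 and was called (limma, adjusted p = 0.0117). The other Lyz2 probe, 17238, had 0.43 in W3 but -0.01 in W2 and was not called (limma, adjusted p = 0.127). The Cndp2 probe least like Gadd45b 1882, 11582, was not called while probe 784 was (limma, adjusted p = 0.0772 and 0.0402).

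Markers of kidney cell types were set beside the members. These marker lists were drawn up with earlier results of these data known, so their counts only describe. In whole-kidney RNA, more cells of a type and more RNA per cell cannot be told apart. The 5-kidney test called 3 of 9 measured endothelial markers, against 4.2% of the 8005 named genes. The median of the 9 was 0.21 in W2 and 0.17 in W4, while W1 had 0.03 and W3 -0.04. In 7 of the 9, W2 and W4 both lay above W1 and W3 on the side A scale, as Ccn2 did, and 17.6% of all named genes had that order. The called ones were Esm1 and Egfl7, which endothelial cells secrete, and Emcn, a sialoprotein of their surface. Esm1 had 0.74 ± 0.08 in W4 and 0.54 in W2, while W1 had 0.14 and W3 0.04 (limma, adjusted p = 1.45e-05). Emcn had 0.59 in W4 and 0.51 in W2 against 0.03 and 0.04 (adjusted p = 0.00102, limma), and Egfl7 had 0.26 and 0.45 against 0.06 and -0.09 (adjusted p = 0.00254, limma). Without mouse W2 the limma calls of Emcn and Egfl7 were lost (adjusted p = 0.0503 and 0.2). The F test among W1 to W4 also called these 3 of the 9 (limma, adjusted p = 0.00509 to 0.0435), against 0.824% of named genes.

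Stroma and smooth muscle markers had 4 of 13 called, all 4 with every mouse on side A. The medians of the list were 0.20 in W2 and 0.16 in W4, while W1 had 0.12 and W3 0.03. In 4 of the 13, W2 and W4 both lay above W1 and W3. Among the called ones Fbln5, an elastic fibre protein, and Dcn, a small proteoglycan, had that order. Fbln5 had 1.22 in W2, 1.21 in W4, 0.70 in W1 and 0.48 in W3 (limma, adjusted p = 2.89e-10). Dcn had 0.47 in W4, 0.44 in W2, 0.15 in W3 and 0.01 in W1 (limma, adjusted p = 0.0246). Mgp, an inhibitor of calcification, and the collagen Col3a1 did not have it. Mgp had 0.51 in W4, 0.32 in W1, 0.29 in W2 and 0.07 in W3 (limma, adjusted p = 0.000575). Col3a1 was farthest from W5 in W1, at 0.36, and lay at 0.25 in W2, 0.20 in W4 and 0.00 in W3 (limma, adjusted p = 0.0342). The calls of Dcn and Col3a1 were lost in 9 and 15 of 28 alternative settings (limma, adjusted p up to 0.18 and 0.237). The F test among W1 to W4 called 1 of the 13, Fbln5, and not Dcn (limma, adjusted p = 0.000872 and 0.414).

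Glomerular markers had 3 of 5 called, with medians of 0.08, 0.11, -0.09 and -0.02 in W1 to W4, and 2 of the 5 had the order of Ccn2. Podxl, a podocyte surface protein, stood at 0.69 in W2 but at 0.04 in W3, with W4 (0.47) and W1 (0.40) between (limma, adjusted p = 3.86e-05). Ehd3, of the glomerular endothelium, had 0.36 in W2, 0.29 in W4, 0.08 in W1 and -0.09 in W3 (limma, adjusted p = 0.0276). Its call was lost in 10 of 28 alternative settings, and its other probe was not called (limma, adjusted p up to 0.217, and 0.624). Npnt, a ligand of integrins, lay on side B in all 4 mice, from -0.14 in W1 to -0.29 in W4 (limma, adjusted p = 0.0153), with the call lost in 4 of 28 settings (limma, adjusted p up to 0.148). The F test among W1 to W4 called 0 of the 5 (limma, adjusted p = 0.0579 for Podxl and 0.226 for Ehd3).

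Tubule markers had 4 of 11 called, with medians of -0.03, 0.05, -0.05 and -0.23 in W1 to W4. In 0 of the 11 did W2 and W4 both lie above W1 and W3, and in 3 both lay below, which 14.1% of all named genes did. Slc22a7 stood at -0.53 in W2 and -0.50 in W4, while W1 had -0.05 and W3 0.02 (limma, adjusted p = 7.26e-05). The 3 other called tubule genes did not set W2 and W4 apart from W1 and W3. The water channels Aqp1 and Aqp2 had 0.17 and 0.05 in W2 but lay on side B in the other mice, at -0.30 and -0.54 in W4 (limma, adjusted p = 0.0153 and 0.00879). Slc26a4, an anion exchanger of intercalated cells, lay on side A in all 4 mice, from 0.07 in W4 to 0.38 in W2 (limma, adjusted p = 0.0183). The calls of Aqp1, Aqp2 and Slc26a4 were lost in 3, 4 and 7 of 28 settings (limma, adjusted p up to 0.149, 0.16 and 0.21). The F test among W1 to W4 called 1 of the 11, Slc22a7 (limma, adjusted p = 0.00688).

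Leukocyte markers had 1 of 9 called, S100a8, a protein of neutrophils, with -0.46 in W2, -0.24 in W1, -0.16 in W4 and 0.19 in W3 (limma, adjusted p = 0.0242). Its call was lost in 5 of 28 settings (limma, adjusted p up to 0.263). The leukocyte medians were -0.07, -0.06, -0.02 and 0.01 in W1 to W4. In 2 of the 9, W2 and W4 both lay above W1 and W3, as in 17.6% of all named genes. The F test among W1 to W4 called 0 of the 9 with limma. The part of these cell types in the Ccn2 values was not tested.

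**Figure D3:**
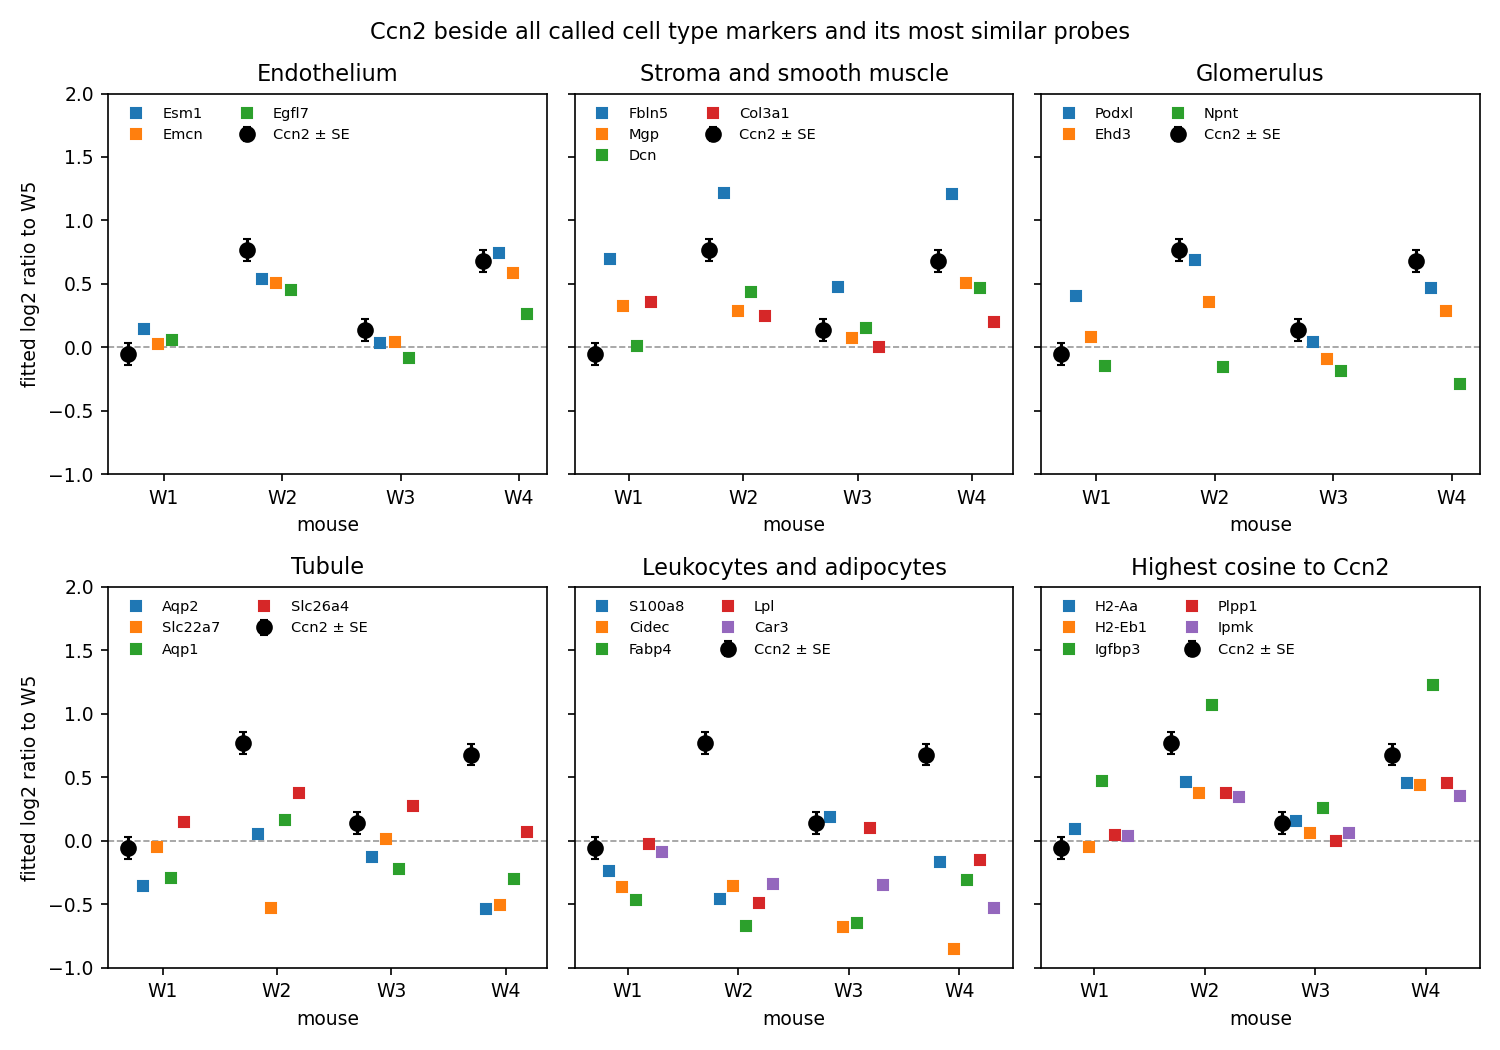
Fitted log2 ratio to W5 (y axis) in each mouse (x axis) for Ccn2 (black, ± SE) beside every called marker of the cell type lists (coloured squares, 1 panel per list, leukocytes and adipocytes sharing one) and the 5 probes with the highest cosine to Ccn2. Esm1, Emcn, Egfl7, Fbln5, Dcn, Podxl and Ehd3 stand higher in W2 and W4 than in W1 and W3, Slc22a7 and Lpl stand lower there, and Mgp, Col3a1, Npnt, Aqp1, Aqp2, Slc26a4, S100a8, Fabp4, Car3 and Cidec do not separate these pairs of mice that way.

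Called adipocyte markers mostly lay on the same side as Gadd45g. The 5-kidney test called 4 of 6 measured, of which Fabp4, Car3 and Cidec had every mouse on side B and Lpl had mice on both. The medians of the 6 were -0.36 in W4, -0.35 in W2, -0.21 in W3 and -0.08 in W1. The order of the mice by these medians differed from that of Gadd45g, which had its second largest size in W1. The F test among W1 to W4 called 0 of the 6 with limma. In 3 of the 6, Lpl being the called one, W2 and W4 both lay below W1 and W3, which 14.1% of all named genes did. In 0 of the 6 did both lie above. Fabp4 itself had -0.47, -0.67, -0.64 and -0.31 in W1 to W4 (limma, adjusted p = 3.8e-05). Cidec, a lipid droplet protein, and Car3, a carbonic anhydrase, were farthest from W5 in W4, at -0.85 and -0.53 (limma, adjusted p = 0.00219 and 0.00145). Lpl, the lipoprotein lipase, ran from -0.49 in W2 to 0.10 in W3, and its call was lost in 5 of 28 settings (limma, adjusted p = 0.0273, and up to 0.634). The other Lpl probes, 3040 and 20123, had ranges of 0.65 and 0.77 and were both called (limma, adjusted p = 0.00309 and 0.000717). The part of fat cells in the Gadd45g values was not tested. Red cell markers had 0 of 2 called by limma, with 0 at an unadjusted p under 0.05.

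Other genes of the same pathways were read from 6 lists with 170 genes beside the members, of which 82 were measured. The lists were drawn up with earlier results of these data known. The 5-kidney test called 9 of the 82 (11%), against 4.2% of named genes, and 26 (31.7%) had an unadjusted p under 0.05, against 18.2%. Their median range was 0.28, against 0.24 for all named genes. The F test among W1 to W4 called 2 of the 82, Rhob and Nt5e, against 0.824% of named genes. The W5 test called 0 with limma, against 0.412% of named genes, and 19 (23.2%) had an unadjusted p under 0.05, against 13.1%.

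Of 23 measured early response genes 4 were called. Rhob, an early response GTPase of the cytoskeleton, had 0.61 in W1, 0.58 in W2 and 0.51 in W3 on side A but -0.12 ± 0.11 in W4 (limma, adjusted p = 0.000271). Bhlhe40, a transcriptional repressor tied to the clock, ran from 0.21 in W1 to -0.39 in W4 (limma, adjusted p = 0.00879), and its call was lost without mouse W3 or W4 (adjusted p = 0.0677 and 0.0692). Dusp2, a MAP kinase phosphatase, had -0.47 in W2 and between -0.17 and -0.01 elsewhere, and its call was lost without mouse W2 (limma, adjusted p = 0.00589 and 0.509).

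Ccn1, a matricellular relative of Ccn2, lay on side A in all 4 mice, with 0.40 in W3, 0.26 in W2 and 0.17 in W1 and W4 (SE 0.08; limma, adjusted p = 0.00753). By fitted value W3 rather than W2 or W4 stood farthest from W5. The F test among W1 to W4 did not call Ccn1 (limma, adjusted p = 0.611). Whether its order of the mice differed from that of Ccn2 was thus not resolved. Without mouse W3 the 5-kidney call of Ccn1 was lost (limma, adjusted p = 0.128). The AP-1 genes Jun, Junb and Atf3 had ranges of 0.20, 0.19 and 0.15, and Dusp1, a phosphatase of the same class as Dusp2, had 0.30. None of these 4 was called (limma, adjusted p = 0.653, 0.466, 0.614 and 0.24). Of the other close relatives, Ier2 had too few values for the fit, and Gadd45a, Fos, Egr1 and Myc were not analysed here.

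Among p53 and stress genes 2 of 12 were called. Cdkn1a, the p21 inhibitor of cyclin-dependent kinases, lay on side B at -0.53 in W1, -0.45 in W2 and -0.26 in W4, but at 0.04 in W3, the mouse in which Gadd45g was farthest on that side (limma, adjusted p = 0.0015). Ccng1, a cyclin induced by p53, had 0.34 in W3 and 0.26 in W1 against 0.11 in W4 and 0.01 in W2 (limma, adjusted p = 0.0225). Its call was lost without W1.1, W1.3, W3.1, W3.2 or W3.4 and without mouse W1 or W3 (limma, adjusted p = 0.0592 to 0.273). Its other probes, 4178 and 6476, had ranges of 0.39 and 0.23 and were not called (limma, adjusted p = 0.174 and 0.279).

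The CCN, YAP and TEAD list had 3 of 16 called. Besides Ccn1 these were Nt5e, an ecto-nucleotidase, and Ddah1, an enzyme that breaks down methylarginines. Nt5e stood at -0.53 in W2 and -0.49 in W4, while W1 had -0.26 and W3 -0.09. Ddah1 stood at 0.37 in W4 and 0.31 in W2, while W1 had 0.15 and W3 0.07 (limma, adjusted p = 1.2e-05 for Nt5e and 0.00422 for Ddah1). In both, W2 and W4 lay farther from W5 than W1 and W3 by fitted value, but on opposite sides. The F test among W1 to W4 called Nt5e but not Ddah1 (limma, adjusted p = 0.0484 and 0.419). The other Ddah1 probe spanned 0.23 without a call in the 5-kidney test (limma, adjusted p = 0.625). Without mouse W4 the 5-kidney call of Ddah1 was lost (limma, adjusted p = 0.0704).

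The TGF-beta list had 1 of 12 called, Id3, an inhibitor of basic helix-loop-helix factors. It had -0.38 in W3 against 0.17 to 0.29 in the other mice (limma, adjusted p = 0.0338), and its call was lost in 14 of 28 alternative settings (adjusted p up to 0.217, limma). Limma called 0 of 12 NF-kappaB genes, with 3 at an unadjusted p under 0.05, and 0 of 8 genes for kinases and phosphatase subunits that work with Gadd45 or Ier3 proteins, with 0 at an unadjusted p under 0.05.

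**Figure D4:**
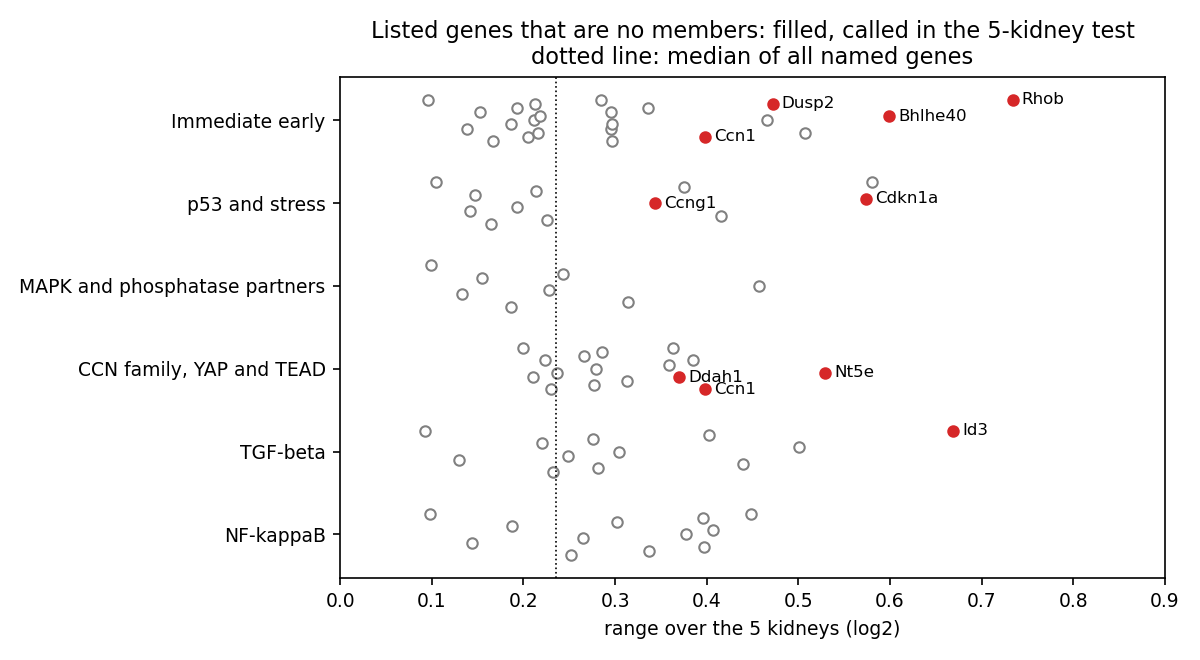
Range over the 5 kidneys in log2 units (x axis) of the measured genes of 6 pathway lists (rows; height within a row has no meaning; Ccn1 stands in 2 rows). Filled points were called in the 5-kidney test and are named; the dotted line is the median of all named genes at 0.24.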

How the data were processed

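Kidney RNA was compared on 16 two-colour arrays, per the labels scanned with a GenePix 4000A and read with GenePix Pro 3.0. Each deposited value is a log2 ratio between channels. Per the labels, the authors subtracted background from mean intensities and set the median ratio to 1. The base was read from the values: 1.56% to 5.01% of an array's values equalled, to 2e-06, the log2 of whole numbers up to 12 divided by each other, counted from the array's most frequent value, against at most 0.126% under another base. The sources used here do not give the dyes, the numerator or the filter behind empty cells.

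The sign was turned where channel 1 held W5. Probes with at least 3 values per mouse, 15715 in all, were fitted with limma 3.58.1 (R 4.3.3): 4 mouse coefficients and a dye term, with moderated F tests (all 4 coefficients; differences among W1 to W4). For W5, the means of the arrays of each mouse, 4 values, were tested against 0, two-sided, which leaves out the spread of W5. P-values concern these extracts and were adjusted over all probes tested. The fits were tested on simulated data. Of 11723 probes with 1 gene symbol, 11590 matched the gene table and 0 symbols changed; the probe with most values stands for a gene. Named are all member probes, called list genes (at most 10 a list), 10 close relatives, and per member the 5 highest and 3 lowest cosines; any other probe was chosen after its values were seen. The members and lists were chosen with earlier results of these data known. Alternatives were the dye term, array number as a block, array weights, scaling, filters, robust moderation, and leaving out arrays or mice.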

Additional observations from a re-analysis of the deposited data

Results flagged for a closer look

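A value was set aside for a closer look where the highest or lowest of 4 values, the arrays of a mouse or the 4 mice, lay far from the other 3 (Dixon's test). Of 184 such groups 11 were picked out, or 5.98%, and chance picks about 5%. Among the members only Gadd45g had one: array W4.3 read -0.124, against -0.397 to -0.353 on the other arrays of that mouse. Without it the fitted value of W4 was -0.38, and W4 was still the mouse nearest to W5.

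Among the mice, W4 lay apart in Rhob at -0.124, against 0.506 to 0.611, and W2 in Atf3 at -0.152, against -0.071 to -0.056. The remaining ones were single arrays. Dusp2 read 0.113 on W3.4 and Dusp1 0.095 on W3.2. Ccng1 read 0.381 on W4.4, Egfl7 0.034 and Aqp1 -0.669 on the same array. Id3 read -0.227 on W3.3. Col3a1 read 0.472 and Fabp4 -0.945 on W2.3.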

How the results depend on the processing

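The ranges of Ccn2, Ier3 and Gadd45b 1894 moved by less than the residual SD in each setting run; Ier3 has no value where all 16 arrays are required. With 1 array left out, the ranges ran from 1.04 to 1.1 for Gadd45g, 0.398 to 0.496 for Gadd45b 1882, 0.104 to 0.157 for Gadd45b 1894, 0.734 to 0.905 for Ccn2 and 0.431 to 0.584 for Ier3. Without mouse W3 the Gadd45g range was 0.881 and 5 listed genes were called in place of 9, and without mouse W1 the range of Gadd45b 1882 was 0.289; with 1 array left out, 7 to 9 listed genes were called. The 5-kidney count of 629 was 403 without the dye term, 378 without mouse W1, 335 without mouse W2, and 457 to 671 with 1 array left out. The count of 110 among W1 to W4 was 62 without the dye term, 240 with array weights, 54, 53, 49 and 70 without W1, W2, W3 or W4, and 72 (without W3.2) to 125 with 1 array left out. The W5 count of 55 was 126 with values on all 16 arrays, 22 with at least 2 per mouse, 502 with the mouse as a random block over all arrays, 32 without mouse W1, 17 without mouse W2, 28 to 63 with 1 array left out (33 without W2.2, 34 without W3.2, 36 without W3.4, 36 without W4.1, 28 without W4.2 and 32 without W4.4), and 22 without W4.3 and W4.4, a setting chosen after seeing the data. Residual correlations cannot decide whether array numbers pair the samples, because same-numbered arrays share an orientation and the fit removed a dye term. Among same-numbered arrays of different mice, 1 of 24 pairs had a correlation over 0.1. Of the 16 arrays, 0 correlated best with its own number. The median was -0.066 for same-numbered pairs, -0.132 for other numbers in the same orientation and 0.118 for opposite orientations. Array number as a replicate block gave 591, 97 and 49 calls in the 3 tests, with 9 listed genes called. Apart from mouse and array removal by construction, the cause of these shifts was not tested.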
